A study of Mus musculus with 20 samples.

Results

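The 40 genes described here encode the machinery by which liver burns fatty acids and turns the product into ketone bodies. They were chosen by name, with earlier results of these data known. Mitochondrial oxidation has 22 of these genes and peroxisomal oxidation 12. The other 6 genes handle fatty acids and acyl-CoA in the cytosol or at membranes. All 40 passed the filter on low counts and were among the 17573 genes tested. Messenger RNA came from the liver (right lobe) of male mouse fetuses of the outbred strain CD-1 IGS, taken at embryonic day 18.5, shortly before birth. The control group (CON) held 10 fetuses of 5 litters, and the group under maternal nutrient restriction (MNR) held 10 fetuses of 5 other litters, with 2 littermates per litter. The labels name no mutation, transgene or drug, and they do not describe the restricted diet or its timing. Because dams, not fetuses, received the diet, the 2 littermates were summed and the litter was the replicate in the main fit. Alternatives that used single fetuses are named as such. Litters that share a letter come from different dams.

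Long-chain fatty acids enter mitochondria as carnitine esters and are shortened there in repeated cycles of 4 reactions, which deliver acetyl-CoA and pass electrons to the respiratory chain. Peroxisomes shorten very long and branched chains and bile acid precursors, and hand the products on. The fetus lives mainly on glucose from the placenta, and at birth milk fat makes fatty acid oxidation and ketone body synthesis main sources of energy for the liver and for other organs. Many of the genes are targets of PPAR alpha, a nuclear receptor that binds fatty acids and acts together with RXR on paired hexamers. Other enzymes of ketone body synthesis are not reported singly here.

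Sequences of 3 upstream regions show what the results below refer to. Hadha and Hadhb encode the 2 subunits of the mitochondrial trifunctional protein and start 86 bases apart on opposite strands of chromosome 5. The 85 bases between their starts are printed whole, because the levels of these 2 genes followed each other more closely across litters than those of any other pair. They lie at chr5:30481703-30481787 on the plus strand (NCBIM37, the mm9 build), have a GC content of 69.4% and contain 9 CpG sites, in capitals.
Hadha-Hadhb: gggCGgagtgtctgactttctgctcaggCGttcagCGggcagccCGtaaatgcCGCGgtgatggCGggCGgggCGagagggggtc
The 250 bases before the start of Fabp1 (chr6:71199629-71199878, plus strand, RefSeq on GRCm38.p6) are shown because this was the 1 window, of the 33 members with a RefSeq window, that held the paired hexamer searched for. That motif, AGGNCANAGGNCA on either strand, occurs in windows of 0.4% of all 27025 genes. The capitals mark it as TGACCTATGGCCT, its first base 67 bases before the start, and a further single hexamer 9 bases before the start.
Fabp1: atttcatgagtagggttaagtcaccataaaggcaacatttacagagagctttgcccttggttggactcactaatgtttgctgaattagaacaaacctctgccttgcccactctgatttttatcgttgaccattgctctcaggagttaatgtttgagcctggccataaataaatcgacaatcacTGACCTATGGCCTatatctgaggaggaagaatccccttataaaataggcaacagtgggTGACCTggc
Cpt1a is shown because it was the 1 member whose litters did not overlap between the groups. Its window (chr19:3323051-3323300, plus strand, RefSeq on GRCm38.p6) has a single hexamer, in capitals, whose first base lies 94 bases before the start.
Cpt1a: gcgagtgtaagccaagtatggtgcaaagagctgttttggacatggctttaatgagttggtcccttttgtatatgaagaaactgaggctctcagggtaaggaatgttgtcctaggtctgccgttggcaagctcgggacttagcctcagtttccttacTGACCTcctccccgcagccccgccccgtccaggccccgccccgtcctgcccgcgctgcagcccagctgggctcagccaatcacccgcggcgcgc
The single hexamer AGGTCA, searched on both strands and counted also inside the paired motif, was found for 9 of 33 members (27.3%) and for 15.8% of all genes. The 9 were Acadm, Acadvl, Acot12, Acot4, Cpt1a, Echs1, Fabp1, Scp2 and Slc27a2. Pex11a, the member with the largest log2 fold change, had neither motif in its window. The GC box GGGCGG was found in 20 of 33 (60.6%, against 35.4% of all), the sequence TATAAA in 2 of 33 (6.06%, against 14.3%) and the E-box CACGTG in 1 of 33 (3.03%, against 6.86%). These are matches of letters, not sites shown to be bound. Every window had 250 bases, but a gene can have more than 1 window, and the 33 members had 36. For 27 of these 36 the bases after the start lay in an annotated transcript of the member.

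The deposited counts of a fetus totalled 14925778 to 28016953. Summed hepatocyte markers, such as albumin and transthyretin, lay between 204999 and 252244 CPM (counts scaled to a common library total, here and below after TMM scaling) in the 10 litters. Blood-forming cells are part of fetal liver, and summed erythroid markers lay between 35152 and 54659 CPM in control and between 35819 and 48677 CPM in MNR litters, with 16 of 18 markers at a negative log2 fold change and 0 past the test. Summed megakaryocyte markers lay between 228.8 and 284.2 CPM in control and between 253.5 and 295.2 CPM in MNR (8 of 8 markers positive), and neutrophil precursor markers between 2266 and 2618 and between 2488 and 3612 CPM (10 of 10 positive). Stellate cell markers lay between 556 and 736 and between 523 and 671 CPM (8 of 8 negative). Summed macrophage markers lay between 430.6 and 544.1 and between 482.3 and 585.1 CPM (9 of 11 positive). None of these 37 markers passed the test, but an unadjusted p under 0.05 was reached by 7 of 8 megakaryocyte, 7 of 10 neutrophil precursor, 3 of 8 stellate and 3 of 11 macrophage markers, against 19.6% of all genes. Their part in the results below was not tested. Fewer cells of a type and less RNA per cell cannot be told apart in RNA of whole tissue. Pancreatic acinar markers exceeded 100 CPM in fetus 1 of control litter B, MNR litter B and MNR litter E. Leaving these 3 fetuses out left 0 members past the test, as in the fit with all fetuses. Of all genes 215 then passed, against 117 with all fetuses.

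The median level of the oxidation genes differed little between the groups, and the largest differences were those of Pex11a, a peroxisome division gene, and Cpt1a, the entry step to mitochondria. With edgeR (quasi-likelihood test, threshold 0.05 on the adjusted p) 0 of the 40 passed, where 0.666% of all 17573 genes did. An unadjusted p under 0.05 was reached by 8 of 40 (20%), against 19.6% of all genes. In that fit 7 of the 8 had a positive log2 fold change of MNR over control (Pex11a, Cpt1a, Acox2, Acot12, Acadm, Ech1 and Decr2), against 9.95% of all genes for this direction. The eighth, Fabp1, had a negative one, against 9.69% of all genes. DESeq2 on the same litter sums called 2 members, Pex11a (log2 fold change 0.64, adjusted p = 0.00339) and Cpt1a (0.42, adjusted p = 0.018), where it called 6.62% of all genes. With the 20 fetuses as separate libraries edgeR called 7 members (14.3% of all genes), limma-voom with the litter as a random effect called 4 (6.74%), and fetus 2 of each litter alone gave 2 (3.08%). The fit of separate libraries counted littermates as independent, although limma-voom's consensus correlation of littermates was 0.294.

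The log2 fold change was positive in 30 of 40 members (75%), against 49.4% of all genes. The median was 0.07, against -0.0027 over all genes. By compartment it was 0.07 for the mitochondrial members (17 of 22 positive), 0.09 for the peroxisomal (8 of 12) and 0.19 for those of the cytosol or membranes (5 of 6). Without control litter D these 3 medians were 0.038, 0.052 and 0.092, the peroxisomal one was 0.14 without control litter C, and the last was 0.11 without MNR litter C. With fetus 1 of each litter alone the overall median was 0.044, the mitochondrial 0.032 and that of the cytosol or membranes 0.063, and with fetus 2 alone 0.13, 0.12 and 0.30. The size of the changes, regardless of sign, was close to that of other genes, with a median of 0.11 for the members and 0.12 for all genes. Together the 40 genes took 8270 ± 757 CPM of the mRNA in control litters (SD, n = 5, range 7033 to 8942) and 8763 ± 293 CPM in MNR litters (SD, n = 5, range 8356 to 9093). These ranges overlap, and 1 low control litter, D, sets the lower end.

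**Figure D1:**
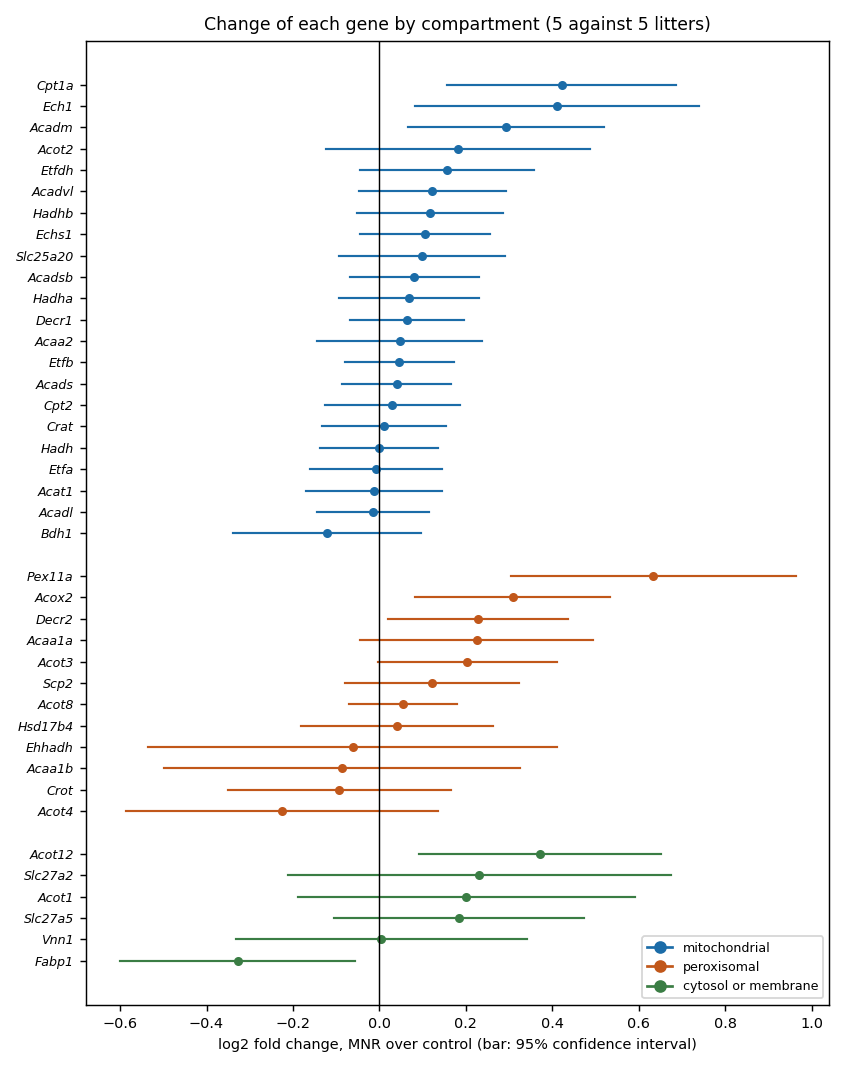
Log2 fold change of MNR over control for each of the 40 genes, grouped by compartment, with its 95% confidence interval from edgeR's fit on 5 against 5 litters. Most mitochondrial genes lie close to 0 with short bars. Of this compartment Cpt1a, Ech1 and Acadm lie farthest to the right, and Acot2 has a long bar, from -0.12 to 0.49. Of all genes Pex11a lies farthest to the right at 0.63, and Fabp1 farthest to the left at -0.33.

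The precision of these values differed by compartment. The 95% interval of the fold change lay within 1.2-fold in either direction for 13 of 22 mitochondrial members, 2 of 12 peroxisomal and 0 of 6 of the cytosol or membranes. It lay within 1.5-fold for 32 of 40, the exceptions being Cpt1a, Ech1, Pex11a, Acot4, Acot1, Acot12, Fabp1 and Slc27a2. The within-group SD of log2 CPM had a median of 0.11 for the mitochondrial members, 0.20 for the peroxisomal and 0.26 for the others, against 0.16 over all genes. It was widest for Ehhadh (0.43), Slc27a2 (0.40) and Acaa1b (0.37), and narrowest for Acot8 (0.053), Etfb (0.074) and Acadl (0.076).

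In control livers the levels spanned a wide range. Their order rests on annotated lengths, and the handling of reads with several matches is not given, so close ranks are uncertain. Per kilobase of the longest coding transcript, Fabp1, the fatty acid binding protein of liver, stood highest at 919 ± 179.9 CPM (SD, n = 5). Acaa2, the last thiolase of the mitochondrial cycle, followed at 439.5 ± 28.8, then Scp2, a peroxisomal thiolase and sterol carrier, at 295 ± 40.7, and Acat1, the acetoacetyl-CoA thiolase, at 242 ± 18.7 CPM per kilobase. The ranges of Fabp1 and Acaa2 did not overlap, whereas those of Scp2, Acat1 and Acadm (213 ± 23.3) did. Etfa and Etfb, the 2 subunits of the flavoprotein that takes electrons from the dehydrogenases, stood at nearly equal levels of 185 ± 14.6 and 182 ± 9.05 CPM per kilobase. The carnitine shuttle stood lower, with Cpt1a at 43.0 ± 6.91, the carrier Slc25a20 at 25.2 ± 3.35 and Cpt2 at 20.1 ± 1.74 CPM per kilobase. The lowest were Pex11a at 6.08 ± 0.317, Acot3 at 5.57 ± 0.719 and Acot2 at 4.27 ± 0.814, and the range of Acot3 overlapped those of both its neighbours.

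**Figure D2:**
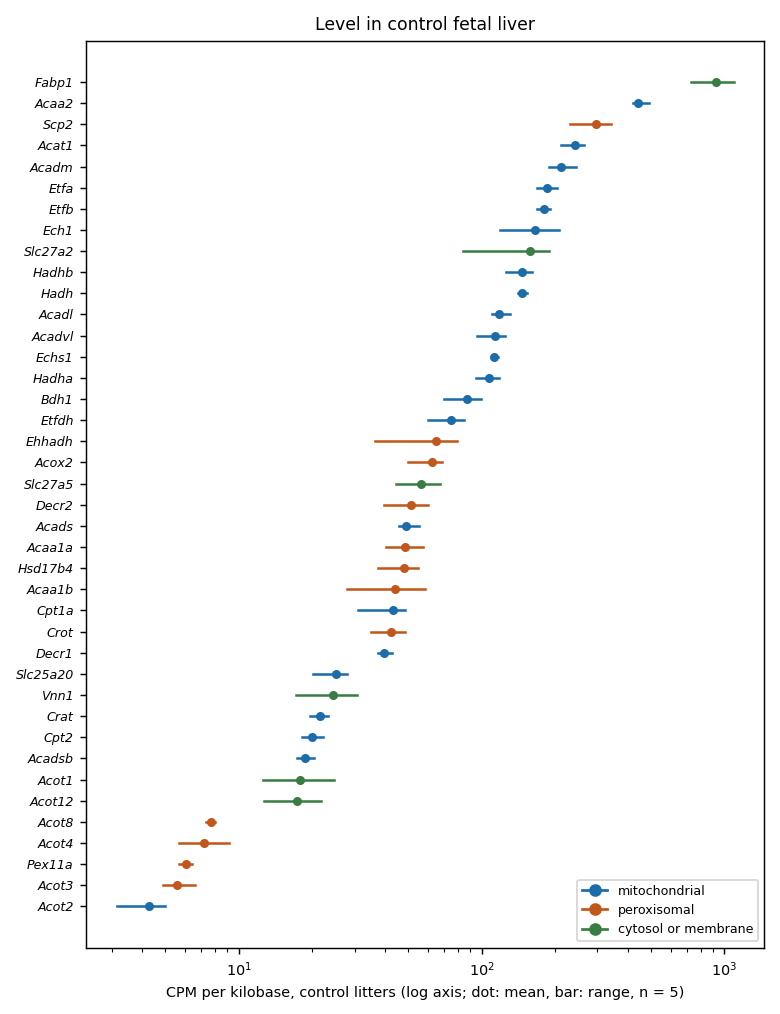
Level of each gene in the 5 control litters in CPM per kilobase of its longest coding transcript, on a log axis, with the dot at the mean, the bar over the range and the colour giving the compartment. Fabp1 stands alone at the top at 919 CPM per kilobase, mitochondrial enzymes fill most of the upper part, and Pex11a and 4 thioesterases lie at the bottom, under 10 CPM per kilobase.

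Carnitine entry into mitochondria had 4 members, all with a positive log2 fold change, of which Cpt1a had the largest. Cpt1a (chr19:3323301-3385732, plus strand, NCBIM37, as for all gene positions below) encodes carnitine palmitoyltransferase 1 of liver, the regulated entry step. It stood at 208, 202, 186, 134 and 196 CPM in control litters A to E and at 222, 209.6, 282, 258 and 266 CPM in MNR litters A to E. All 5 MNR litters lay above the control range, but MNR litter B and control litter A differed by only 2 CPM. Cpt1a was the 1 member of 40 without overlap, and 2.28% of all genes separated the litters in this direction, so this count is near the background. The fold change was 1.34 (95% interval 1.11 to 1.61; log2 0.42, SE 0.12, edgeR adjusted p = 0.0987). Single fetuses overlapped, with 122.5 to 234 CPM in control and 175.0 to 306 CPM in MNR. Control litter D was far below the other control litters, and without it the log2 fold change was 0.32 (edgeR adjusted p = 0.142). With fetus 1 of each litter alone it was 0.29 (edgeR adjusted p = 0.623), and with fetus 2 alone 0.55 (edgeR adjusted p = 0.021). Without the 3 fetuses with pancreatic transcripts it was 0.49 (edgeR adjusted p = 0.0504).

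The partners of Cpt1a in the shuttle stayed close to their control level. Slc25a20, the carnitine-acylcarnitine carrier of the inner membrane, went from 44.99 ± 5.97 CPM in control to 48.1 ± 2.96 CPM in MNR litters (SD, n = 5 each), a log2 fold change of 0.10 (interval -0.09 to 0.29). Cpt2, which releases the acyl group inside, stood at 47.7 ± 4.12 and 48.7 ± 3.7 CPM (0.03, interval -0.13 to 0.19), and Crat, carnitine acetyltransferase, at 91.3 ± 6.98 and 92.0 ± 5.58 CPM (0.01, interval -0.13 to 0.15). The intervals of Cpt2 and Crat lie within 1.2-fold in both directions.

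Among the 5 acyl-CoA dehydrogenases, which start each round, Acadm had the largest difference and the 4 others lay near the control level. Acadm (chr3:153585321-153607596, minus strand) encodes the medium-chain enzyme. Its level was 389.7, 503, 390.1, 444 and 454 CPM in control litters A to E and 484, 610.1, 449.8, 608 and 519 CPM in MNR litters A to E. MNR litters B, D and E lay above all control litters, and MNR litters A and C lay inside the control range. The fold change was 1.23 (95% interval 1.05 to 1.43; log2 0.29, SE 0.10, edgeR adjusted p = 0.153). The very-long-chain enzyme Acadvl had a log2 fold change of 0.12 (interval -0.05 to 0.29), and 42.9% of its exon bases overlap Dvl2 on the opposite strand, so its value is uncertain if strand was not used in counting. Acadl, the long-chain enzyme, and Acads, the short-chain enzyme, had -0.01 (interval -0.14 to 0.12) and 0.04 (interval -0.09 to 0.17). Acadsb, the dehydrogenase of short branched chains, had 0.08 (interval -0.07 to 0.23).

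Of the 3 electron transfer genes that take over from the dehydrogenases, Etfa and Etfb differed little between the groups and Etfdh had a larger difference that did not pass. Etfa went from 258 ± 20.3 CPM in control to 256 ± 16.1 CPM in MNR, and Etfb from 158 ± 7.85 to 163 ± 8.33 CPM (SD, n = 5 litters each). Both log2 intervals, -0.16 to 0.14 and -0.08 to 0.17, lie within 1.2-fold. Etfdh, the oxidoreductase that passes the electrons to ubiquinone, had 0.16 (interval -0.04 to 0.36), with control litter D at 142.6 CPM below a range of 165.9 to 201.6 CPM in the other 4.

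The middle and last steps of the mitochondrial cycle did not differ beyond their intervals. Hadha (chr5:30444841-30481702, minus strand), the alpha subunit of the trifunctional protein, stood at 434, 414, 444, 382 and 474 CPM in control litters A to E. In MNR litters A to E it stood at 493, 441, 414, 431 and 474 CPM. The groups overlapped almost fully, with 1 MNR litter above and 0 below the control range, and the log2 fold change was 0.07 (SE 0.074, edgeR adjusted p = 0.646). Hadhb, the beta subunit, had 0.12 (interval -0.05 to 0.29), from 301 ± 26.4 to 327 ± 24.5 CPM. Hadh, the dehydrogenase of medium and short chains, had nearly equal means of 262 ± 8.71 and 262 ± 19.5 CPM, with an interval of -0.14 to 0.14. Echs1, the short-chain hydratase, had 0.10 (interval -0.05 to 0.26), and Acaa2 0.05 (interval -0.14 to 0.24), from 666 ± 43.6 to 688 ± 83.2 CPM.

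The 2 auxiliary enzymes that prepare unsaturated chains differed from each other in size of change. Ech1 (chr7:29610236-29617266, plus strand) moves double bonds into position. It stood at 175, 255, 210.1, 151 and 263 CPM in control litters A to E and 314, 249.9, 283, 236 and 318 CPM in MNR litters A to E. All 5 MNR litters lay above the control median, and 3 lay above the whole control range, while MNR litters B and D lay inside it. The fold change was 1.33 (95% interval 1.06 to 1.67; log2 0.41, SE 0.15, edgeR adjusted p = 0.165), and without control litter D the log2 fold change was 0.31. Decr1, the mitochondrial dienoyl-CoA reductase, had 0.06 (interval -0.07 to 0.20). The difference between the 2 changes was not tested.

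The ketone body genes among the members, Bdh1 and Acat1, had negative log2 fold changes close to 0. Bdh1 (chr16:31422366-31458987, plus strand) converts acetoacetate to beta-hydroxybutyrate. Its level was 265, 275, 295, 219.7 and 310.1 CPM in control litters A to E and 239, 218, 288, 245 and 265 CPM in MNR litters A to E. Control litter D and MNR litter B were the lowest, at nearly the same value, and 4 of 5 MNR litters lay inside the control range. The log2 fold change was -0.12 (interval -0.34 to 0.10, edgeR adjusted p = 0.543). Acat1 had -0.01 (interval -0.17 to 0.14), from 826 ± 63.7 to 818 ± 48.2 CPM. For Bdh1 the interval excludes a rise of 1.2-fold but not a fall of that size, and for Acat1 it excludes both.

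Among the peroxisomal genes the largest difference belonged to Pex11a, and the enzymes of the peroxisomal cycle went in both directions. Pex11a (chr7:86880843-86888017, minus strand) encodes a membrane protein that elongates peroxisomes before they divide, and is a known target of PPAR alpha. It stood at 13.6, 12.7, 14.5, 13.2 and 14.2 CPM in control litters A to E, the narrowest relative range of the members named by litter here. In MNR litters A to E it stood at 25.5, 20.6, 19.9, 13.3 and 26.5 CPM. Of the 5 MNR litters, 4 lay far above every control litter and litter D lay within the control range, with both of its fetuses low (13.01 and 13.9 CPM). The fold change was 1.55 (95% interval 1.24 to 1.95; log2 0.63, SE 0.15, edgeR adjusted p = 0.0674). Without MNR litter D it passed the test (log2 fold change 0.76, edgeR adjusted p = 0.00703, with 2.89% of all genes called). Over all alternatives its adjusted p ranged from 0.00168 (edgeR, 20 fetuses as separate libraries) to 0.312 (edgeR, fetus 1 of each litter alone).

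Acox2 and Decr2 were the other 2 peroxisomal genes with an unadjusted p under 0.05. Acox2 (chr14:9058025-9091867, minus strand), an oxidase of branched chains and bile acid intermediates, stood at 144, 193, 199.9, 180.2 and 189.6 CPM in control litters A to E and 244, 196, 194, 249 and 239.6 CPM in MNR litters A to E. MNR litters A, D and E lay above the control range and litters B and C inside it (fold change 1.24, 95% interval 1.06 to 1.45, edgeR adjusted p = 0.137). Decr2 (chr17:26218156-26227274, minus strand), the dienoyl-CoA reductase of peroxisomes, stood at 105, 132, 118, 87.0 and 119 CPM in control litters A to E. In MNR litters A to E it stood at 135, 135, 127, 136 and 124 CPM. The MNR litters lay close together at the upper end of a wide control range, and 3 of them lay above it (fold change 1.17, 95% interval 1.01 to 1.35, edgeR adjusted p = 0.216). Without control litter D the log2 fold change of Decr2 was 0.15.

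Ehhadh (chr16:21761360-21787917, minus strand), the bifunctional enzyme of the peroxisomal cycle and a classical PPAR alpha target, had the widest spread of all 40 genes. It stood at 193, 209.5, 228, 109.8 and 239 CPM in control litters A to E and 208, 116, 196, 175 and 244 CPM in MNR litters A to E. Control litter D and MNR litter B were near 110 to 116 CPM, far below the other 8 litters, and the groups overlapped. The log2 fold change of -0.06 had an interval of -0.54 to 0.41 (edgeR adjusted p = 0.903). Hsd17b4, the other bifunctional enzyme, had 0.04 (interval -0.18 to 0.26), and Scp2 0.12 (interval -0.08 to 0.32). The paralogous thiolases Acaa1a and Acaa1b had 0.23 (interval -0.04 to 0.49) and -0.09 (interval -0.50 to 0.33). They share 32% and 35.5% of their 50-base words, so reads of one can have been counted for the other. Crot, which turns shortened chains into carnitine esters for export, had -0.09 (interval -0.35 to 0.17), and the log2 intervals of Ehhadh, Acaa1b and Crot reach beyond 1.2-fold in at least one direction.

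**Figure D3:**
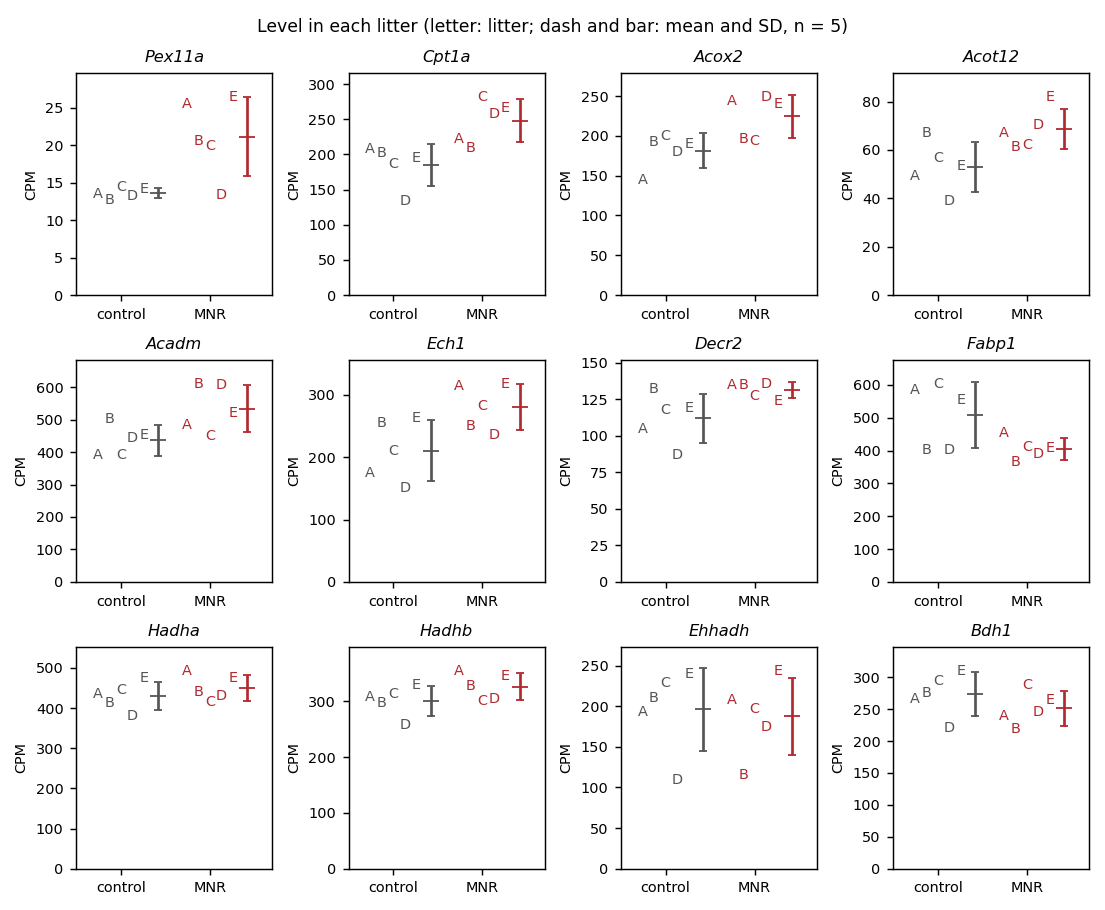
Level in CPM of 12 of the genes in each litter, control in grey and MNR in red, with the letter naming the litter and the dash and bar giving the mean and SD (n = 5 litters). Cpt1a is the panel in which the letters of the groups do not overlap, Pex11a has 4 MNR litters at 19.9 to 26.5 CPM and litter D at 13.3 CPM, and control litter D lies low for Cpt1a, Ech1, Hadha, Hadhb, Ehhadh and Bdh1.

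Acyl-CoA thioesterases, which free the fatty acid from its CoA, had 6 members, of which 5 had a positive log2 fold change and 0 passed. Acot12 (chr13:91881117-91925753, plus strand), the acetyl-CoA hydrolase of the cytosol, stood at 49.2, 67.0, 56.5, 38.8 and 53.5 CPM in control litters A to E and 67.1, 61.4, 62.2, 70.3 and 81.9 CPM in MNR litters A to E. MNR litters A, D and E lay above the control range, litter A by less than 1 CPM, and control litter B was the highest of its group. The fold change was 1.29 (95% interval 1.07 to 1.57; log2 0.37, SE 0.13, edgeR adjusted p = 0.144). Without control litter B it passed (log2 fold change 0.47, edgeR adjusted p = 0.0451, with 4.75% of all genes called), and without control litter D it was 0.28 (edgeR adjusted p = 0.222).

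Acot1, Acot2, Acot3 and Acot4 form a cluster on chromosome 12 and serve the cytosol, mitochondria and peroxisomes in turn, the last with 2 of them. They share 10% to 47.1% of their 50-base words with each other or with the paralogs Acot5 and Acot6, so their single values are uncertain, and 12% of the exon bases of Acot3 and 24.5% of those of Acot4 also overlap 4732463B04Rik on the opposite strand. Overlaps on the opposite strand took 7.63% to 12.2% of the exon bases of Crat, Acaa1b, Acot8 and Slc27a2. Acot1 went from 28.0 ± 7.95 to 32.2 ± 5.16 CPM (log2 fold change 0.20), Acot2 from 9.38 ± 1.79 to 10.6 ± 1.58 CPM (0.18), Acot3 from 14.4 ± 1.86 to 16.6 ± 1.6 CPM (0.20) and Acot4 from 16.8 ± 3.03 to 14.3 ± 3.37 CPM (-0.23). None of these passed, with edgeR adjusted p from 0.261 to 0.571. Acot8, a peroxisomal enzyme outside the cluster, had the narrowest spread of the 40 genes and went from 8.85 ± 0.327 to 9.19 ± 0.342 CPM (interval -0.07 to 0.18).

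Fabp1 was the 1 member with an unadjusted p under 0.05 and a lower level in MNR. Fabp1 (chr6:71149821-71155017, plus strand) encodes the carrier of fatty acids in the liver cell and is a known PPAR alpha target, whose upstream sequence is printed above. It stood at 584, 401, 603, 401 and 552 CPM in control litters A to E and 454, 364, 412, 388 and 407 CPM in MNR litters A to E. The control litters fell into a pair near 401 CPM (B and D) and 3 litters at 552 to 603 CPM, MNR litters A, C and E lay in the gap between them and MNR litters B and D below all control litters. The fold change was 0.797 (95% interval 0.66 to 0.962; log2 -0.33, SE 0.12, edgeR adjusted p = 0.177).

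The other genes of uptake and activation had wide intervals that include no change. Slc27a2, which activates very long chains, stood between 245 to 554 CPM in control and 394 to 653 CPM in MNR litters (log2 fold change 0.23, interval -0.21 to 0.67). Slc27a5, which activates bile acids and fatty acids, stood between 102 to 155 and 124 to 194 CPM (0.18, interval -0.11 to 0.47). Vnn1, a pantetheinase that releases a precursor of coenzyme A, stood between 41.6 to 74.0 and 48.2 to 71.3 CPM (0.0046, interval -0.33 to 0.34).

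Litters of 1 group also differed among themselves. Control litter D was the lowest of its group for 26 of 40 members (65% of them), where it was the lowest for 23.9% of all genes. It was the lowest of all 10 litters for 20 of 40, against 15.0% of all genes. Relative to their control means its members had a median log2 deviation of -0.22, which was -0.13 for the mitochondrial, -0.30 for the peroxisomal and -0.36 for the other members. Slc27a2 stood at 245 CPM in this litter against 458 to 554 CPM in the other control litters, and Acaa1b at 47.1 against 63.4 to 99.2 CPM. Both of its fetuses were low, with Slc27a2 at 214 and 285 CPM and Ehhadh at 94.1 and 130.4 CPM. Vnn1 and Acadsb were not low there, at 71.0 and 68.7 CPM. Without this litter the median log2 fold change of the 40 genes was 0.05.

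The same litter had the highest mean log2 CPM of erythroid markers of all 10, at 7.997, where the others lay between 7.44 and 7.89. Across the 10 litters, centred on their group means, the mean standardised level of the members and the erythroid mean had a Pearson r of -0.71 (Spearman rho -0.58), and r was -0.56 without control litters D and E, the 2 farthest from the median. These values share libraries and a common total. With the erythroid mean as a covariate in edgeR 0 members passed, and the log2 fold change of Cpt1a was 0.36 and that of Pex11a 0.60. Between littermates the median absolute log2 difference was 0.11 for the members and 0.15 for all genes tested. It was smallest for Acads (0.034) and Etfa (0.039) and largest for Acaa1a (0.37), Slc27a2 (0.31) and Acot1 (0.29).

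**Figure D4:**
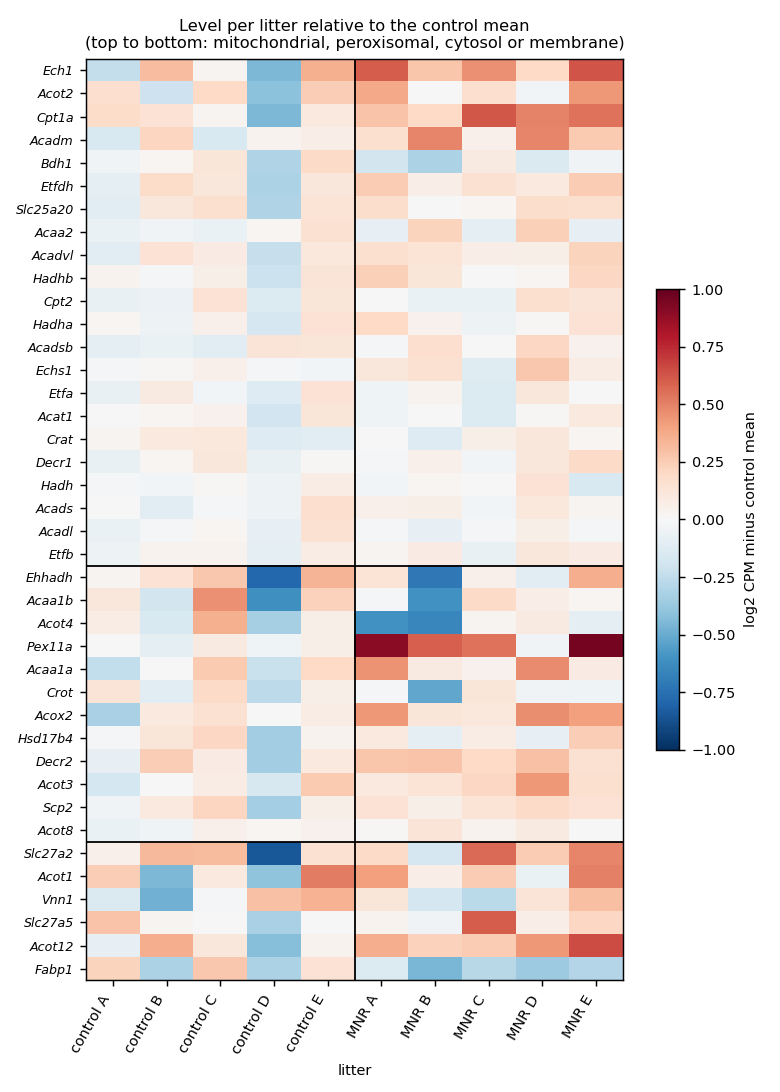
Log2 CPM of each gene in each of the 10 litters minus the mean of the control litters, with genes sorted within compartments by within-group spread and the black lines separating groups and compartments. Control litter D is blue for most genes in all 3 compartments, Pex11a is red in MNR litters A, B, C and E, and the lower mitochondrial rows from Cpt2 to Etfb are pale throughout.

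Pairs of members differed in how closely their levels followed each other. These correlations are a description over the 10 litters, centred on group means, of values that share libraries and depth. Among the 780 pairs of members, Hadha and Hadhb had the highest Pearson r, 0.97, and they face each other across the short interval printed above. Etfa and Etfb, subunits of 1 protein from different chromosomes, had 0.92, Acadvl and Etfdh 0.94, and Cpt1a and Slc27a2 0.92. In peroxisomes Acaa1b and Crot had 0.94. Acot1 and Acot2 had 0.93, but they share sequence, so shared reads can link their counts. These pairs were picked for their high r. Control litter D was the lowest control litter for every gene of these pairs except Acot1, and r without it is not given. The median over pairs was 0.43 among mitochondrial, 0.38 among peroxisomal and 0.36 across compartments, and the lowest was -0.77 for Hadh and Pex11a.

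Members differed in how well they followed the mean of all 40, which includes the member itself. Slc25a20 (r 0.95), Cpt2 (0.87) and Scp2 (0.87) followed it most closely, and r for them was 0.91, 0.94 and 0.81 without control litters D and E. Pex11a (0.054), Acadm (0.025) and Acadsb (-0.16) did not follow it. Outside the members the genes most like this mean over the 10 litters were Lclat1 (r 0.95, rho 0.84), Dnajc15 (0.94, 0.78) and Trmt5 (0.92, 0.95), with r of 0.89, 0.79 and 0.90 without the same 2 litters. They were picked for the highest r among the 17573 genes tested, so high values come with the choice.

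**Figure D5:**
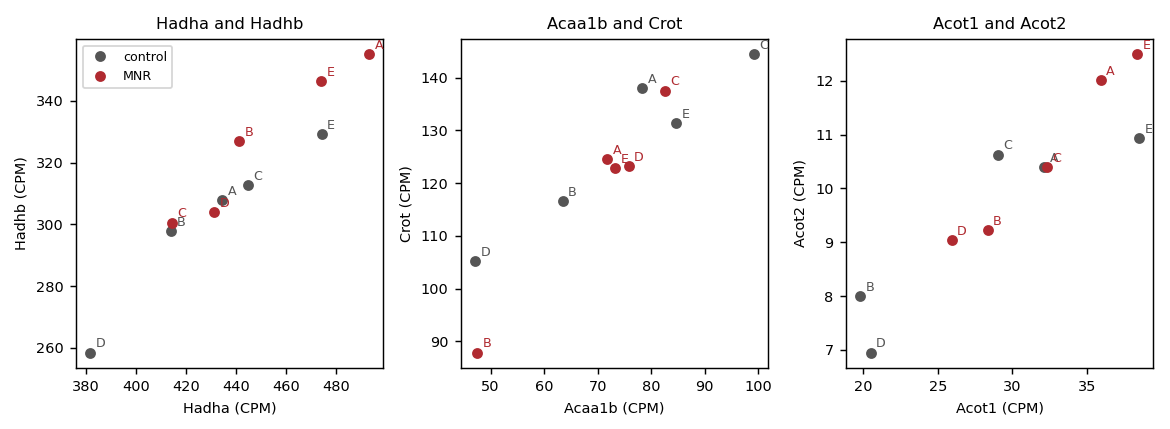
Levels in CPM of 3 pairs of genes in the 10 litters, control in grey and MNR in red, with letters naming the litters. In each panel the litters of both groups lie near a common rising line, with control litter D at or near its lower end. Sequence shared by Acot1 and Acot2 can add to the third.

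Of the wider pathway, 1 further oxidation gene rose and 1 regulator rose. Among 41 other genes of fatty acid and branched-chain oxidation 1 rose, 0 fell and 40 did not pass, where 0.666% of all genes passed. An unadjusted p under 0.05 was reached by 10 in the positive and 1 in the negative direction, against 9.95% and 9.69% of all genes. The median log2 fold change was 0.07. Eci2, a peroxisomal enoyl-CoA isomerase, stood at 60.9, 76.5, 62.3, 53.2 and 70.7 CPM in control litters A to E and 109, 91.2, 88.8, 79.5 and 104 CPM in MNR litters A to E. All 5 MNR litters lay above the control range (log2 fold change 0.54, SE 0.11, edgeR adjusted p = 0.0467). Of all genes 2.28% separated the litters in this direction, the share to set beside each gene without overlap below. Eci2 was picked for its small p. It was called in 14 of 23 alternatives and lost the call when any 1 of control litters A, C, D or E or MNR litters A, B, C or E was left out (edgeR adjusted p = 0.0704 to 0.124). Of its exon bases 7.23% overlap Gm16984 on the opposite strand.

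The other 3 of smallest p in that list did not pass. Phyh, which begins the breakdown of phytanic acid in peroxisomes, stood at 299, 404, 305, 288 and 399.8 CPM in control litters A to E and 411, 559.5, 503, 559 and 505 CPM in MNR litters A to E, without overlap (log2 fold change 0.58, edgeR adjusted p = 0.0535). Gcdh, of lysine breakdown, had 0.28 (edgeR adjusted p = 0.0587), also without overlap. Cpt1b, the muscle form of the entry enzyme, had 0.74 (edgeR adjusted p = 0.0803), from 17.9 ± 6.03 to 29.9 ± 5.27 CPM, but 81.4% of its exon bases lie in annotated exons of Chkb on the same strand. Cpt1b is also 1 of 7 brown fat markers measured, whose summed level was 28.8 to 48.3 CPM in control and 44.9 to 69.5 CPM in MNR litters. The list had 8 such markers, and the remaining one, Ucp1, was not among the genes with a count. Over all litters Cpt1b lay between 12.8 and 34.8 CPM and Ppargc1a, a coactivator that liver also expresses, between 11.8 and 35.3 CPM. Dio2 lay between 0.487 and 0.894 CPM, and Cidea, Elovl3, Cox8b and Adipoq were at 0.16 CPM or less in every litter. The 3 brown fat markers with enough counts to test all had a positive log2 fold change (median 0.74), 2 of them with an unadjusted p under 0.05 and 0 past the test, and their part in the results was not tested.

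Genes for building peroxisomes did not pass (0 of 13 tested, against 0.666% of all genes), with 10 of 13 positive and a median log2 fold change of 0.14. An unadjusted p under 0.05 was reached by 4 in the positive and 0 in the negative direction, against 9.95% and 9.69% of all genes. Pex26, an anchor of the import machinery, stood at 23.7, 28.5, 25.2, 28.8 and 25.8 CPM in control litters A to E and 39.4, 41.6, 27.1, 34.9 and 40.8 CPM in MNR litters A to E, with litter C the 1 MNR litter inside the control range (log2 fold change 0.48, edgeR adjusted p = 0.0592). Pex14, the docking protein of import, had 0.26 (edgeR adjusted p = 0.098), without overlap between the groups, but 28.3% of its exon bases overlap Gm17029 on the opposite strand, so its value is uncertain if strand was not used in counting. Pex16, which inserts membrane proteins, had 0.30 (edgeR adjusted p = 0.243).

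Among 32 tested genes that control fatty acid oxidation or mark its regulators, 1 rose, 0 fell and 31 did not pass, where 0.666% of all genes passed. An unadjusted p under 0.05 was reached by 16 in the positive and 3 in the negative direction, against 9.95% and 9.69% of all genes, and the median log2 fold change was 0.22. The list was chosen with earlier results of these data known, so these counts describe it and are not a test of it. Ppargc1b, a coactivator of nuclear receptors that raises oxidative metabolism, stood at 5.46, 6.34, 3.88, 6.83 and 6.24 CPM in control litters A to E. In MNR litters A to E it stood at 19.8, 14.7, 9.99, 10.8 and 18.2 CPM. The lowest MNR litter lay above the highest control litter, and the fold change was 2.55 (95% interval 1.86 to 3.49; edgeR adjusted p = 0.0263). The call was lost when any 1 of control litters A, C, D or E or MNR litters A, B or E was left out (edgeR adjusted p = 0.0544 to 0.0799), and it held in 15 of 23 alternatives.

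The next 3 regulators did not pass. Sirt3, the deacetylase of mitochondria, stood at 37.0, 42.7, 35.1, 32.8 and 37.6 CPM in control litters A to E and 43.7, 45.7, 46.4, 48.1 and 44.4 CPM in MNR litters A to E, without overlap (log2 fold change 0.30, edgeR adjusted p = 0.0587). Angptl4, a lipase inhibitor and PPAR target, went from 72.5 ± 15.2 to 124 ± 30.3 CPM (0.77, edgeR adjusted p = 0.0664). Rxra, the partner receptor of PPAR alpha, went from 219 ± 18.6 to 261 ± 9.06 CPM (0.26, edgeR adjusted p = 0.0785).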

How the data were processed

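Per the labels' protocols, total RNA of ground frozen liver was purified by TRIzol, then on a column with DNase, and 1 centre made strand-preserving libraries. The authors deposited whole-number counts per transcript for each of the 20 fetuses. The tools were FastQC, Bowtie2, edgeR and DESeq2 and the build mm9, per the submitters' processing notes. Not given in the sources used here are the counting tool, versions, use of strand and handling of reads with several matches. A deposited gene table was not used, because its values are not sums of these counts.

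Counts were summed per gene with GENCODE M1 on NCBIM37 and then per litter, and transcripts without a gene (0.0788% to 0.154% of counts) were left out. Of 90 pairs of fetuses within a group 0 were identical, and the chi-square of each pair per degree of freedom was 9.78 to 79.1, above sampling noise. Low genes were removed by filterByExpr at a minimum count of 10. The rest were TMM-scaled and tested in edgeR 4.0.16 under R 4.3.3 (two-sided quasi-likelihood test, Benjamini-Hochberg adjustment over 17573 genes, threshold 0.05). The procedure was tested on simulated counts. Intervals are 95% confidence intervals of the fitted fold change. CPM of fetuses and litters use scaled totals, and correlations use log2 CPM with a prior count of 2. Alternatives used limma 3.58.1 and DESeq2 1.42.0.

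The members, the lists and the naming rule were chosen with earlier results of these data known. Values of every litter are given for members with an unadjusted p under 0.05 and for Cpt1a, Acadm, Hadha, Ehhadh, Bdh1 and Fabp1, and from each further list at most the 4 genes of smallest p are named, in part by litter; 1 gene that this rule names is not reported here. Members singled out for spread, level or co-variation were chosen by those values. Promoter windows are RefSeq's on GRCm38.p6, and 33 of 40 members matched by symbol. The labels say that fetuses of a litter are separate samples, and p-values of the main fit measure the spread between litters. The labels give no batch.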

Additional observations from a re-analysis of the deposited data

Results flagged for a closer look

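In 124 checks for a litter far from the others of its group, 80 of them on members, 4 such values were found and 0 of them concerned a member. Chance alone gives about 1 in 20 groups. Rxra stood at 244.9 CPM in MNR litter D, where the other 4 MNR litters lay between 263.3 and 266.1 CPM. Summed megakaryocyte markers stood at 253.5 CPM in MNR litter D, against 285.2 to 295.2 CPM in the other MNR litters. Neutrophil precursor markers stood at 3612 CPM in MNR litter B, against 2488 to 2735 CPM. Pancreatic acinar markers stood at 317.9 CPM in control litter B, against 17.5 to 25.7 CPM in the other control litters.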

How the results depend on the processing

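There were 23 alternatives, of which 1 (leaving out the 3 fetuses with pancreatic transcripts) was chosen after seeing the data. Over them 29 of 40 members kept the sign of their log2 fold change. The median over the 40 members and over each compartment also kept its sign. It moved by less than the SD over litters of the median deviation (0.078 to 0.18). That SD was close to the medians themselves or larger, so the small moves do not show that they are stable. Over the alternatives the median ranged from 0.044 to 0.13 for all 40 and from 0.032 to 0.12 for the mitochondrial members. It ranged from 0.052 to 0.14 for the peroxisomal members and from 0.063 to 0.30 for those of the cytosol or membranes. Upper-quartile scaling lowered it to 0.045 for all 40, 0.036 for the mitochondrial and 0.058 for the peroxisomal members, and the erythroid covariate to 0.125 for those of the cytosol or membranes. Against 117 genes and 0 members called, edgeR called 2301 genes and 7 members with the 20 fetuses as separate libraries, limma-voom with the litter as a random effect 1088 and 4, fetus 2 of each litter alone 499 and 2, fetus 1 alone 0 and 0 (1699 genes at an unadjusted p under 0.05), DESeq2 1163 and 2, upper-quartile scaling 178 and 0, and the fit without the 3 fetuses 215 and 0. The cause of these differences was not tested. The fit of separate fetuses counted littermates as independent. Leaving out 1 litter at a time gave 0 to 843 genes (843 without control B, 512 without MNR D, 30 without MNR C, 2 without control D or MNR A, 0 without any of the others, where 2818 to 3102 had an unadjusted p under 0.05) and 0 to 1 members. With the litter letter as a replicate block 232 genes and 0 members were called. Litters of the same letter had correlations of -0.0093 to 0.184, 3 of 5 over 0.1 and 2 of 5 highest with their own letter. The labels give the letters no shared origin and not every letter was over 0.1, so the litters were not treated as pairs. Signs turned only for 11 members with fold changes near 0. With fetus 1 alone these were Cpt2 (-0.0048), Crat (-0.016), Acaa2 (-0.0022), Vnn1 (-0.13), Acat1 (0.0064) and Hadh (0.0014), and with fetus 2 alone Acadl (0.042), Etfa (0.035), Ehhadh (0.030) and Hadh (0.0066). Upper-quartile scaling turned Crat (-0.020) and Vnn1 (-0.024), totals without scaling Vnn1 (-0.0042), and the erythroid covariate Crat (-0.015), Hsd17b4 (-0.025) and Hadh (0.0046). Without the 3 fetuses Acadl stood at 0.0028 and Etfa at 0.0085, and with limma-voom Acat1 at 0.0018 and Hadh at 0.0031. Hadh also turned with separate fetuses (0.0054), DESeq2 (0.00092), DESeq2's size factors in edgeR (0.00082) and no filter (0.0049). Leaving out single litters, the ranges were Acaa1b -0.21 to 0.039, Acaa2 -0.0040 to 0.086, Acadl -0.035 to 0.025, Acat1 -0.058 to 0.018, Cpt2 -0.0032 to 0.067, Crat -0.021 to 0.044, Ehhadh -0.21 to 0.070, Etfa -0.040 to 0.029, Hadh -0.040 to 0.035, Hsd17b4 -0.037 to 0.093 and Vnn1 -0.10 to 0.10. Whether depth limits single members was not tested.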
